A study of Mus musculus with 6 samples.

Results

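The genes of asparagine-linked (N-) glycosylation were examined in bulk RNA sequencing of mouse pancreatic islets with and without the gene Sec16b. The list held 42 genes, and 41 of the 18437 genes in the deposited table matched it. The 42 were chosen by symbol for their place in the pathway, with earlier results of these data known. Tusc3, an oxidoreductase subunit of the oligosaccharyltransferase, was not analysed here. All 41 passed the filter on low values, which asked for 10 or more normalized reads in at least 3 libraries and which 16042 genes passed. The study compared islets of male mice aged 30 weeks, 3 libraries from Sec16b+/+ animals (wild type) and 3 from Sec16b-/- animals (knockout). Sec16b encodes a scaffold protein of the sites where cargo leaves the endoplasmic reticulum (ER), and the comparison asks which islet transcripts differ without it. The sources used here give neither how the allele was made nor whether a library is 1 animal or a pool, so a p-value reflects the spread between libraries, which may be technical. Levels are in normalized reads, that is counts divided by a factor for each library, and values of single libraries are listed in the order of replicates 1, 2 and 3.

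In N-glycosylation a branched sugar is first built on the membrane lipid dolichol by the Alg enzymes, starting on the cytosolic face of the ER and ending in its lumen. The oligosaccharyltransferase then moves the whole sugar onto asparagines of newly made proteins. Glucosidases trim its glucoses, the Uggt enzymes put a glucose back on misfolded proteins so that lectin chaperones hold them, and mannosidases and Mgat transferases of the ER and Golgi shape the final branches. Islet cells carry N-glycans on many proteins of the secretory route, among them receptors and transporters at the cell surface.

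Recovered reads per library ran from 22071895 to 26806787. Sec16b itself was at 1655, 773 and 1786 (wild type) against 553, 433 and 750 (knockout), so transcript was still counted in every library labelled knockout. All 10 beta cell markers were in the table and made up 11.5% to 15.1% of the reads in wild type libraries and 9.36% to 14.8% in knockout libraries. All 33 acinar markers, genes of the enzyme-secreting exocrine cells, made up 1.28% to 5.87% in wild type libraries and 0.794% to 17.8% in knockout libraries, with knockout replicate 1 highest and knockout replicate 3 lowest. Of 11 lymphocyte markers 8 were in the table, at 0.00144% to 0.109% of wild type and 0.0334% to 0.536% of knockout reads. Alpha cell markers (6 of 6) held 0.754% to 1.66% against 1.12% to 2.88%, and delta and PP cell markers (5 of 5) 0.175% to 0.201% and 0.169% to 0.289%. Marker lists of duct, macrophage, endothelial and stellate cells each stayed under 0.1% of reads in every library, and their genes were all in the table. No marker in the table stood at 0, since each gene listed has at least 1 read in every library. In bulk islet RNA, fewer cells of a type and less RNA per cell cannot be told apart.

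No gene of the pathway passed limma's test, and neither did Sec16b itself (log2 fold change −1.22, SE 0.35, limma adjusted p = 0.993). The mean log2 level of the 41 genes was 10.32, 10.30 and 10.35 (wild type) against 10.32, 10.23 and 10.27 (knockout), which overlapped. Of the 5 roles in the pathway, the oligosaccharyltransferase was the one whose mean level did not overlap between the groups. The share of other gene sets of like size and level that do so was not computed. In the main fit 4 of the 5 branching genes had positive fold changes, a count that changed with the settings. Of the 41 genes 30 had a negative log2 fold change (knockout minus wild type, on the log2(value + 1) scale), with a median of −0.08. Over all genes tested 50.6% were negative, with a median of −0.0030. Fold changes ran from −0.28 for Mogs to 0.66 for Dpm1, and 16 of the 41 lay within 0.1 of zero. Limma with Benjamini-Hochberg adjustment over all genes called 0 of the 41 (0.00% of all genes tested), with adjusted p from 0.993 to 0.999. At an unadjusted p under 0.05 there were 3, of which Stt3b and Mogs were lower (1.36% of all genes) and Dpm1 was higher (1.72%). The same 3 genes had an unadjusted p under 0.05 with edgeR's quasi-likelihood test and with DESeq2's Wald test on recovered reads. Without a variance trend limma gave Stt3b an unadjusted p of 0.0643 and Mogs one of 0.0765, which left Dpm1 as the 1 gene under 0.05 (0.0421). With array weights 6 lower genes and 1 higher gene were under 0.05. With single libraries left out the unadjusted p lay between 0.0306 and 0.0965 for Stt3b, between 0.0243 and 0.122 for Mogs and between 0.0284 and 0.118 for Dpm1. Of all genes, edgeR had 1.25% lower and 1.93% higher at that p, and DESeq2 1.32% and 1.96%. After adjustment both called 0 of the 41, against 0.00% of all genes with edgeR. DESeq2 called 0.0653% of 18389 genes, of which 42.6% had no adjusted p, Alg13 among them.

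In 7 of the 41 genes the 3 knockout values lay below all 3 wild type values, against 5.22% of all genes tested. These were Stt3b, Rpn1, Ostc and Magt1 of the oligosaccharyltransferase and Mogs, Prkcsh and Uggt1 of glucose trimming and reglucosylation. In 1 gene, Dpm1, all knockout values lay above, against 3.85% of all genes. The 7 were all highly expressed, and highly expressed genes leaned lower in general. Of 2533 genes with a mean over all libraries of 2000 or more, a limit chosen after the values were seen, 66.6% had a negative fold change and 10.1% had knockout values all below wild type. Of the 18 pathway genes at that level 16 were negative, with a median of −0.14 against −0.06 for all 2533, and 7 were separated. Of the 23 pathway genes under that level 14 were negative, with a median of −0.05, and 0 were separated on the lower side. The mean log2 level of the 18 was 12.05, 12.09 and 12.17 (wild type) against 12.01, 11.92 and 12.01 (knockout), without overlap. All listed oligosaccharyltransferase genes but Ost4 are among these 18. The mean level of all 2533 was 11.91, 11.95 and 11.96 (wild type) against 11.96, 11.91 and 11.88 (knockout), which overlapped, and that of the 23 overlapped too.

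**Figure D1:**
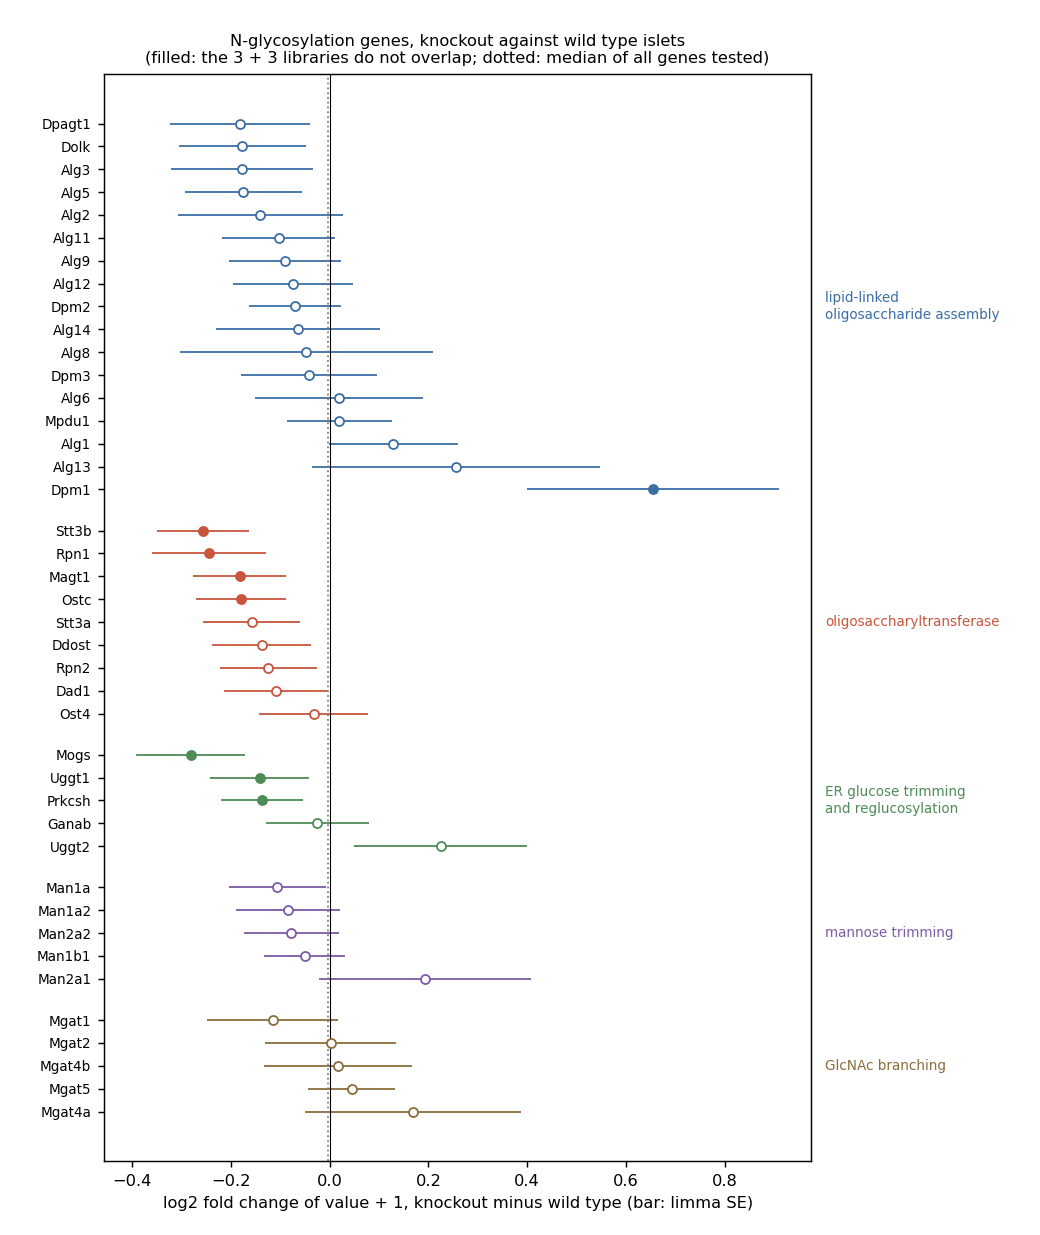
Log2 fold change of value + 1, knockout minus wild type, on the x axis for the 41 genes, grouped by role, with bars for limma's SE; filled points are genes whose 3 knockout and 3 wild type libraries do not overlap. The 9 oligosaccharyltransferase genes all sit left of zero, from −0.26 to −0.03, while Dpm1 stands farthest to the right at 0.66.

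The oligosaccharyltransferase is the ER membrane complex that carries out the transfer step. All 9 of its genes among the 41 were negative, with a median log2 fold change of −0.16. Cell type markers leaned too: 9 of 10 beta cell markers were negative, with a median of −0.13, while 31 of 33 acinar markers (median 0.80) and 6 of 6 alpha cell markers (median 0.24) were positive. Also positive were 8 of 8 lymphocyte (median 1.98), 6 of 8 duct (0.47), 4 of 5 delta and PP (0.27) and 7 of 8 endothelial markers (0.26). Macrophage and stellate markers were mixed, with 5 and 4 positive and medians of 0.07 and 0.0002. The part of cell types other than acinar cells in the difference was not tested. The mean log2 level of the 9 oligosaccharyltransferase genes was 12.11, 12.20 and 12.21 (wild type) against 12.07, 11.92 and 12.06 (knockout), so the groups did not overlap. Knockout replicate 2 had the lowest value of the 6 libraries in 8 of the 9 genes. With the acinar marker level as a covariate 9 of 9 stayed negative, with a median of −0.15. Leaving out single libraries gave 8 or 9 negative genes and medians from −0.22 to −0.12, and the library whose loss left 8 was knockout replicate 2.

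Stt3b, a catalytic subunit that can also act after a protein has entered the ER, had the smallest p of the 41 genes. It stood at 4319, 4755 and 4527 (wild type) against 3877, 4043 and 3478 (knockout). The log2 fold change was −0.26 (SE 0.09), or 1.19-fold lower, at an unadjusted p of 0.0297. Every knockout value lay below the lowest wild type value. Stt3a, the catalytic subunit that works beside the translocation channel, was at 8008, 8949 and 9106 (wild type) against 8108, 7389 and 7845 (knockout), a log2 fold change of −0.16 (SE 0.10). Wild type replicate 1 lay within the knockout range for this gene.

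Rpn1, ribophorin I, a large structural subunit, was at 9285, 9852 and 9635 (wild type) against 8917, 7058 and 8430 (knockout). Its log2 fold change was −0.24 (SE 0.12), and knockout replicate 2 was by far the lowest library. Ostc, which helps tie the Stt3a form of the complex to the translocation channel, was at 3226, 3700 and 3605 (wild type) against 3167, 2930 and 3193 (knockout), a log2 fold change of −0.18 (SE 0.09). The separation was narrow, between wild type replicate 1 and knockout replicate 3. Magt1, the oxidoreductase subunit of the Stt3b form, was at 4783, 4894 and 5445 (wild type) against 4485, 4170 and 4661 (knockout), a log2 fold change of −0.18 (SE 0.09). All 3 knockout values again lay below all wild type values. Ddost, another structural subunit, was at 7551, 8545 and 8637 (wild type) against 7582, 7081 and 7792 (knockout), a log2 fold change of −0.14 (SE 0.10). Its groups overlapped through wild type replicate 1.

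The remaining listed subunits Rpn2, Dad1 and Ost4 had log2 fold changes of −0.12 (SE 0.10), −0.11 (SE 0.11) and −0.03 (SE 0.11), with overlapping groups. The small subunits Krtcap2 and Tmem258, which were not on the list, had −0.15 (SE 0.11) and −0.01 (SE 0.14), and also overlapped. With the acinar covariate Tmem258 was at 0.0041. Of the exonic bases of Ost4 53.2% also belong to Agbl5 on the opposite strand, and the sources used here give no strand setting for the counting, so reads of these genes cannot be told apart. Per kilobase of exon, Ddost had the highest level in wild type islets, 3889 ± 284 (SD, n = 3) normalized reads per kilobase. Rpn2 followed at 2306 ± 133 (SD, n = 3) and Rpn1 at 2126 ± 63.5 (SD, n = 3), then Ostc at 1276 ± 91.2 (SD, n = 3). Below these were Magt1 at 1079 ± 76.0 (SD, n = 3), Stt3b at 1074 ± 51.8 (SD, n = 3) and Stt3a at 971 ± 66.4 (SD, n = 3). Of the listed subunits, Dad1 and Ost4 were lowest at 603 and 572. Exon lengths are those of all annotated exons in GENCODE M21, which may not be the annotation the authors used. They were 3.92 kb for Dad1 and 1.27 kb for Ost4, and can exceed the length of the transcript in the cell. The order of levels per kilobase depends on these lengths.

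**Figure D2:**
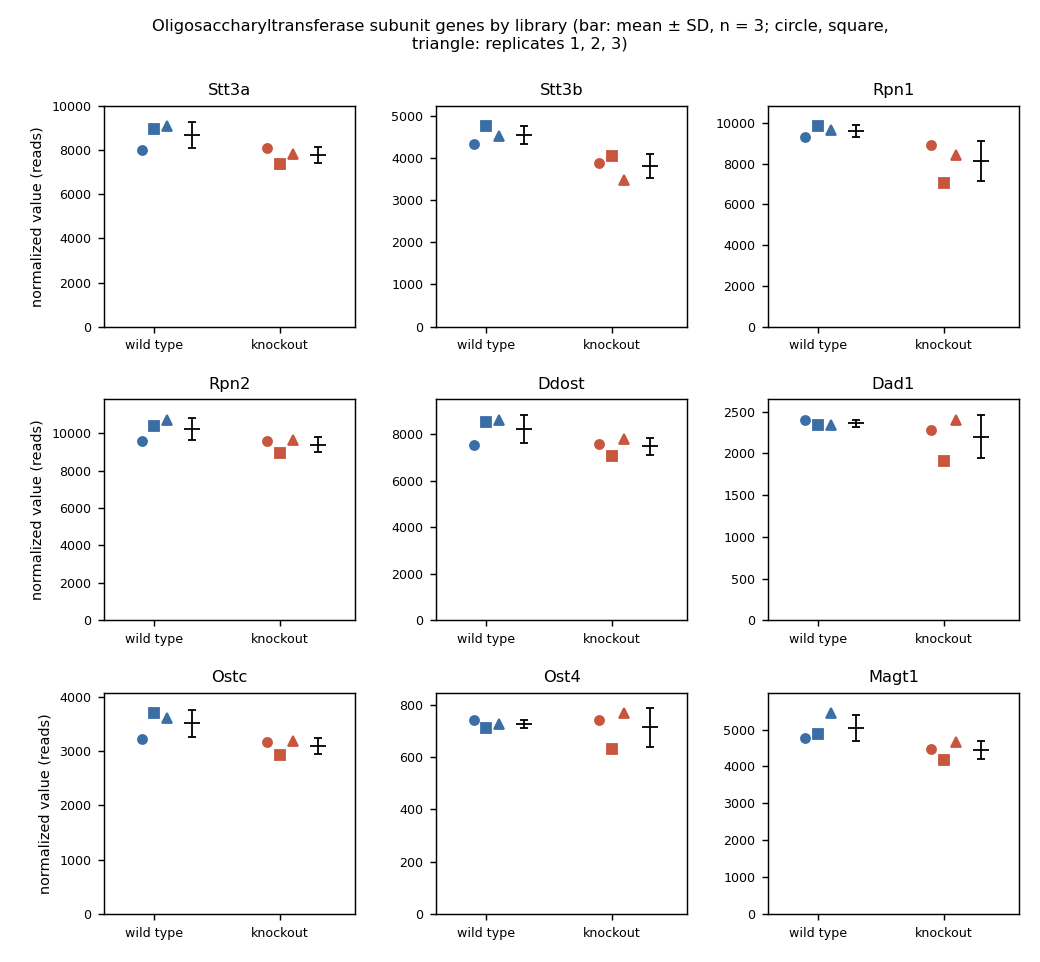
Normalized value (y axis, from 0) of each listed oligosaccharyltransferase gene in the 3 wild type (blue) and 3 knockout (red) libraries, with mean ± SD (n = 3). Knockout replicate 2, the square, is lowest in all panels but Stt3b, where knockout replicate 3 is lowest at 3478.

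The genes of glucose trimming and reglucosylation came next in size, with 4 of 5 negative and a median of −0.14. Mogs, glucosidase I, which removes the outermost glucose right after transfer, was at 3112, 2728 and 2958 (wild type) against 2645, 2121 and 2491 (knockout). Its log2 fold change was −0.28 (SE 0.11), or 1.22-fold lower, at an unadjusted p of 0.0388, and the groups did not overlap. Prkcsh, the regulatory subunit of glucosidase II, was at 3210, 3003 and 3296 (wild type) against 2993, 2749 and 2902 (knockout), a log2 fold change of −0.14 (SE 0.08). Here the gap between the groups was narrow, between wild type replicate 2 and knockout replicate 1. Ganab, the catalytic subunit of the same enzyme, had −0.02 (SE 0.10) and overlapping groups, at 5261 ± 315 (SD, n = 3) for wild type against 5180 ± 478 (SD, n = 3) for knockout.

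The pair of folding sensors had fold changes of opposite sign. Uggt1, the main enzyme that marks misfolded glycoproteins with a glucose, was at 8910, 9220 and 9848 (wild type) against 8810, 7793 and 8778 (knockout), a log2 fold change of −0.14 (SE 0.10). Uggt2, its less abundant relative, was at 392, 474 and 576 (wild type) against 545, 494 and 637 (knockout), a log2 fold change of 0.23 (SE 0.18). Neither passed the test, but their ratio within a library was separated between the groups. The log2 ratio of Uggt2 to Uggt1 was −4.50, −4.28 and −4.09 (wild type) against −4.01, −3.98 and −3.78 (knockout), a difference of 0.37. The two-sided exact permutation test gave p = 0.1, the smallest that 3 against 3 libraries can give, and p = 0.5 after adjustment over the 5 paralog pairs compared. With single libraries left out the difference ran from 0.26 to 0.47. Per kilobase of exon in wild type islets, Uggt1 was at 726 and Uggt2 at 37.6.

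The 17 genes that build the lipid-linked sugar had 12 negative and 5 positive fold changes, with a median of −0.07. Their mean log2 level was 8.76, 8.68 and 8.75 (wild type) against 8.73, 8.69 and 8.72 (knockout), and these overlapped. Dpm1, the catalytic subunit of the synthase that makes dolichol-phosphate mannose, was the only one of them whose groups were separated. It was at 170, 113 and 188 (wild type) against 297, 243 and 198 (knockout). Its log2 fold change was 0.66 (SE 0.26), or 1.57-fold higher, at an unadjusted p of 0.0381, and 0.54 with the acinar level as a covariate. With single libraries left out it lay between 0.44 and 0.80. The gap between wild type replicate 3 and knockout replicate 3 was small, and knockout replicate 1, with the largest acinar share, was highest. The part of other cell types in this result was not tested beyond that covariate. Dpm1 shares 895 exonic bases with Gm20716 on the same strand, 11.95% of its 7.49 kb of annotated exons, so its reads are uncertain. Since that length can exceed the transcript in the cell, the share of its reads that is affected may be larger. Dpm2 and Dpm3, the subunits that hold and stabilise the same enzyme, had −0.07 (SE 0.09) and −0.04 (SE 0.14).

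Alg5, which makes dolichol-phosphate glucose, was at 669, 662 and 589 (wild type) against 629, 516 and 558 (knockout), a log2 fold change of −0.17 (SE 0.12). Dolk, the kinase that makes dolichol phosphate, was at 529, 487 and 446 (wild type) against 416, 399 and 478 (knockout), a log2 fold change of −0.18 (SE 0.13). Both overlapped between the groups. Dpagt1, which adds the first sugar, had −0.18 (SE 0.14), and its partners in the next step, Alg13 and Alg14, had 0.26 (SE 0.29) and −0.06 (SE 0.17). Among the mannosyltransferases, Alg1 had 0.13, Alg2 −0.14, Alg11 −0.10, Alg3 −0.18, Alg9 −0.09 and Alg12 −0.07. The glucosyltransferases Alg6 and Alg8 had 0.02 and −0.05, and Mpdu1, needed to use the dolichol-linked sugars, had 0.02. All of these overlapped between the groups. Exons of Alg1 and Alg9 also share bases with genes on the opposite strand, 17.6% with Eef2kmt and 12.9% with 1110032A03Rik, and those of Alg3 with 3 such genes, so their reads are uncertain too. Levels within this set were uneven: per kilobase of exon in wild type islets, Alg2 was highest at 1167 ± 187 (SD, n = 3) and Alg13 lowest at 12.8 ± 2.65 (SD, n = 3).

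No mannosidase or branching enzyme separated the groups. Of the 5 mannosidase genes 4 were negative, with a median of −0.08, and of the 5 Mgat genes 1 was negative, with a median of 0.02. With single libraries left out 1 to 3 of the 5 Mgat genes were negative, with medians from −0.01 to 0.09. Man1b1, the ER mannosidase, was the steadiest of the mannosidases, at 1758 ± 96.7 (SD, n = 3) for wild type against 1695 ± 22.8 (SD, n = 3) for knockout. Man1a, a Golgi mannosidase of the first trimming steps, was at 6161, 5306 and 5307 (wild type) against 5137, 4967 and 5456 (knockout), a log2 fold change of −0.11 (SE 0.10). Its relative Man1a2 was at 2070, 2529 and 2509 (wild type) against 2131, 2246 and 2301 (knockout), a log2 fold change of −0.08 (SE 0.10). Both overlapped between the groups.

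Man2a1, which takes off the last mannoses before complex branches form, varied most among the mannosidases. It was at 2389, 1710 and 2163 (wild type) against 2982, 2514 and 1764 (knockout), a log2 fold change of 0.19 (SE 0.21). Its paralog Man2a2 was at 2299, 2411 and 2618 (wild type) against 2277, 2158 and 2513 (knockout), a log2 fold change of −0.08 (SE 0.10). The Man2a1 values stood in nearly the same order as the acinar shares, with knockout replicates 1 and 2 and wild type replicate 1 highest and with wild type replicate 2 and knockout replicate 3 lowest. With the acinar level as a covariate its fold change was 0.06, and beyond that the part of acinar cells was not tested.

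Mgat1, the enzyme that starts the first branch, and Mgat2, which starts the second, had −0.12 (SE 0.13) and 0.0018 (SE 0.13). Mgat5, which adds a further branch, had 0.04 (SE 0.09). Mgat4a, a branching enzyme known in beta cells for the N-glycan of the glucose transporter Slc2a2, was at 419, 377 and 289 (wild type) against 483, 434 and 310 (knockout), a log2 fold change of 0.17 (SE 0.22). Mgat4b was at 1582, 1963 and 1551 (wild type) against 1960, 1775 and 1434 (knockout), a log2 fold change of 0.02 (SE 0.15), with a sign that turned without wild type replicate 1 or 3, without knockout replicate 1 or 2, and with the acinar covariate. Neither gene separated the groups.

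**Figure D3:**
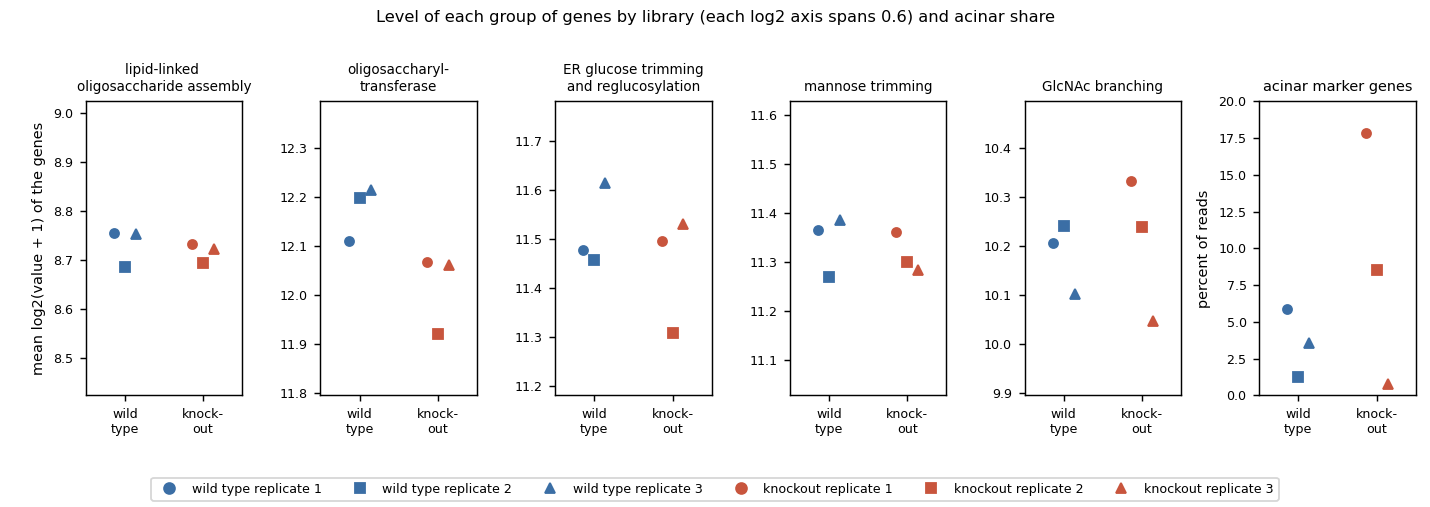
Mean log2(value + 1) of the genes of each role in each library, with axes that each span 0.6, and the share of reads taken by the 33 acinar markers. Wild type and knockout libraries are apart for the oligosaccharyltransferase and overlap for the other roles, while the acinar share runs from 0.794% to 17.8%.

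The other paralog ratios overlapped between the groups. The log2 ratio of Stt3b to Stt3a was −0.94 ± 0.06 (SD, n = 3) for wild type against −1.04 ± 0.15 (SD, n = 3) for knockout (exact permutation p = 0.4, adjusted p = 0.625). For Man1a2 to Man1a it was −1.24 ± 0.29 (SD, n = 3) and −1.22 ± 0.07 (SD, n = 3) (exact p = 1). For Man2a2 to Man2a1 it was 0.24 ± 0.28 (SD, n = 3) and −0.03 ± 0.48 (SD, n = 3) (exact p = 0.5). For Mgat4b to Mgat4a it was 2.24 ± 0.28 (SD, n = 3) and 2.08 ± 0.11 (SD, n = 3) (exact p = 0.4). These ratios compare reads, not reads per length.

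**Figure D4:**
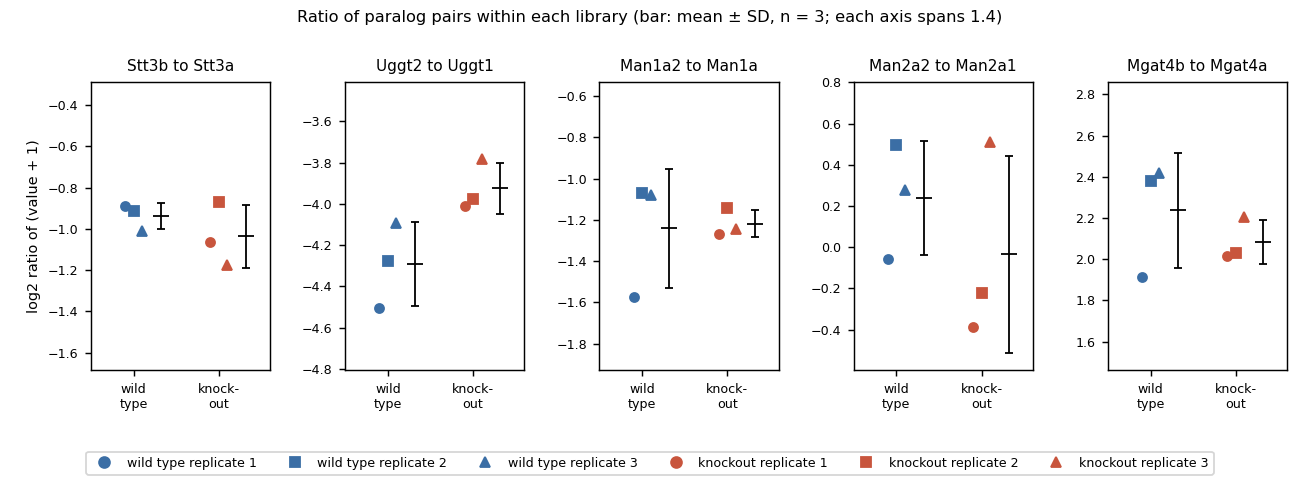
Log2 ratio of (value + 1) of 5 paralog pairs within each library, with mean ± SD (n = 3); each axis spans 1.4. The Uggt2 to Uggt1 ratio is higher in all knockout libraries, from −4.01 to −3.78, than in any wild type library, and the other pairs overlap.

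The 2 libraries that set the extremes were the same for much of the pathway. Knockout replicate 2 had the lowest value of the 6 libraries in 21 of the 41 genes, and wild type replicate 3 had the highest in 16. How often these libraries were lowest or highest over all genes tested was not counted. Without knockout replicate 2 the median of the 41 was −0.05, with 29 negative. Without wild type replicate 3 it was −0.06, with 28 negative. The 41 genes together held 0.455%, 0.475% and 0.467% of the reads in wild type libraries against 0.371%, 0.400% and 0.454% in knockout libraries. The share was lowest in knockout replicate 1, where the acinar markers took 17.8% of reads.

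Other genes of N-glycosylation were read from lists that hold none of the 41, and 0 of them passed limma's test over all genes. Of 17 genes that supply dolichol and sugar nucleotides 8 were negative, with a median of 0.0044. Alg10b, the last glucosyltransferase of the lipid-linked sugar, had −0.20 (SE 0.09), Pmm1, a phosphomannomutase, −0.29 (SE 0.18), and Gfpt2, an enzyme of hexosamine synthesis, 1.37 (SE 0.91). Gfpt2 was at 108, 343 and 159 (wild type) against 1245, 764 and 109 (knockout), so the difference rested on knockout replicates 1 and 2. Of 12 small subunits, ER lectins and glycan-handling genes 7 were negative, with a median of −0.03. Among them Mlec, malectin, which binds glucosylated glycans, was at 20639, 19099 and 18815 (wild type) against 15951, 14046 and 18058 (knockout), a log2 fold change of −0.29 (SE 0.13). Calr, the lectin chaperone calreticulin, had −0.61 (SE 0.15), and DESeq2 called it (adjusted p = 0.00711) where limma did not (adjusted p = 0.993). Ngly1, which strips glycans from discarded proteins, had 0.18 (SE 0.13). Of 19 Golgi genes of glycan extension 12 were negative, with a median of −0.07. The smallest p there were those of the galactosyltransferase B4galt3 (−0.21, SE 0.12), the fucose carrier Slc35c1 (−0.20, SE 0.12) and the branching enzyme Mgat5b (0.68, SE 0.39).

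Promoters were searched for the motifs bound by the factors of the unfolded protein response, since several oligosaccharyltransferase and Alg genes are known targets of that response. RefSeq windows on GRCm38.p6, 250 bases before to 50 after a start site, were at hand for 34 of the 41 genes. The ER stress response element, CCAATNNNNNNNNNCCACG on either strand, occurred in 1 of the 34, Alg12, and in 20 of 11712 tested genes with a window (0.171%). Its second form, ATTGG and CCACG with any 1 base between them, occurred in 0 of the 34 and in 8 of the 11712. The core TGACGTG, whose first letters are shared with the cAMP response element, occurred in Mogs and Dpm2, 5.88% of the 34, against 3.18% of the tested genes. The CCAAT box, which is part of the first motif, was present in 55.9% of the 34 and 42.2% of the tested genes. The windows of Alg12 and Mogs are shown because they hold the full element and the core in the gene of most negative fold change. Capitals mark the motif, and each window reads 5′ to 3′ along the gene. The Alg12 window lies at chr15:88819269-88819568 on the minus strand, with the motif from base −220 to −202 of the start site, and the Mogs window at chr6:83115256-83115555 on the plus strand, with the motif from −34 to −28.
Alg12: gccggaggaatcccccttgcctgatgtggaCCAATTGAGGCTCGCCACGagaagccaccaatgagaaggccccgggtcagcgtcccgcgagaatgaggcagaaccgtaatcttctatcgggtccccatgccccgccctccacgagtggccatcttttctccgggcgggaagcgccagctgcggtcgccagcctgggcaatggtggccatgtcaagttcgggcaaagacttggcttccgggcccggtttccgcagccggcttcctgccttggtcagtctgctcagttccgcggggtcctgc
Mogs: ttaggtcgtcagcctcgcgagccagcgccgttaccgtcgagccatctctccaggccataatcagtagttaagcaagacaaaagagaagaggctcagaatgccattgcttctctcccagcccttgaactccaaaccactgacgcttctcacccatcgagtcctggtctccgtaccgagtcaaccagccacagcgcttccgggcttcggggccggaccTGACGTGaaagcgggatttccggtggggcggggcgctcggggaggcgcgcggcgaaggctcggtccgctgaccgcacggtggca
The log2 fold changes of Alg12 and Mogs were −0.07 (SE 0.12) and −0.28 (SE 0.11). Dpm2, which also holds the core and whose window is not shown, had −0.07 (SE 0.09). Neither element nor the core was found in the windows of the 8 listed oligosaccharyltransferase genes that had one, which says only that these letters are not in those windows.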

How the data were processed

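The 6 islet libraries, 3 per genotype, were aligned with HISAT2 according to the submitters' processing notes, which do not name a genome build, a counting tool or a strand setting (not given in the sources used here). The deposited signal values behave as gene counts that the authors scaled by 1 factor for each library: 100% were whole multiples of the library's step within 0.01 reads. Groups and replicate numbers came from the labels. Limma 3.58.1 in R 4.3.3 fitted log2(value + 1), knockout minus wild type, with a variance trend over 16042 genes (10 or more normalized reads in at least 3 libraries) and Benjamini-Hochberg adjustment at 0.05. EdgeR 4.0.16 and DESeq2 1.42.0 on recovered reads were alternatives. DESeq2 left 42.6% of adjusted p-values undefined. On simulated counts with these depths, 32.5% of genes changed 2-fold were called by limma, and so were 42 of 77985 that had no change. Each of the 5 runs held 200 changed genes, at 2- to 16-fold, and noise was drawn separately for each gene. The simulation thus had no cell type shifts shared between genes, and its shares may not hold for these data.

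The genes with a value given for every library were the 12 of smallest p, the paralog pairs and Sec16b, and, of each list of other pathway genes, the 3 of smallest p got a fold change. Gfpt2 and Mlec, among the latter, were given for every library after their values were seen. Krtcap2 and Tmem258 were given a fold change as further subunits of the oligosaccharyltransferase, also after their values were seen. The members and lists were chosen with earlier results of these data known. Gene names were used as deposited. Other settings tried were a pseudocount of 0.5 or 5, other filters, TMM scaling, no variance trend, array weights, a block on replicate number, the acinar marker level as a covariate, and each library left out in turn. Paralog ratios were compared by two-sided exact permutation, with Benjamini-Hochberg adjustment over 5 pairs, since the pair with Tusc3 was not analysed here. The largest fold among the members was 1.57. Marker lists are described by their share of reads.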

Additional observations from a re-analysis of the deposited data

How the results depend on the processing

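Limma called 0 of all genes tested in every alternative run with it, and so did edgeR, while DESeq2 called 12 of all genes and 0 of the 41. With limma, genes at an unadjusted p under 0.05 numbered 494, against 331 to 1104 with single libraries left out, 1045 with array weights and 864 with the replicate block. EdgeR had 509. DESeq2 had 603 over 18389 genes without the filter on low values, and 584 over the 16042 genes that passed it. The 41 genes had 28 to 31 negative fold changes with single libraries left out, and medians from −0.10 to −0.047, the latter without knockout replicate 2. In the other alternatives 30 to 32 were negative, with medians from −0.12 with array weights to −0.07 with the acinar covariate. TMM scaling gave 30 negative genes and a median of −0.08. For 19 named members over 17 alternatives, 318 of 323 values kept their direction and stayed uncalled. The other 5 were all of Mgat4b, which was −0.024 with the acinar covariate and lay between −0.082 and 0.14 when 1 library was left out. The log2 ratio difference of Man1a2 to Man1a lay between −0.14 and 0.11 when 1 library was left out, and the cause was not tested. Whether replicate numbers pair the libraries was not settled. Deviations of same-numbered libraries correlated at 0.43, 0.0037 and 0.37 over genes. For replicates 1 and 3 this was the best match of both libraries, while wild type replicate 2 correlated best with knockout replicate 3 (0.20). The replicate block gave a median of −0.08 and 0 called genes. With 3 libraries per group, differences of the size seen here lie near the SE, whose median over the 41 was 0.11.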
